A study of Mus musculus with 12 samples.

Results

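The aryl hydrocarbon receptor gene Ahr, its partner genes Arnt and Arnt2, and the feedback genes Ahrr and Tiparp were followed in ET cells treated with the dioxin TCDD. All probe sets whose platform symbol was one of these names were taken, which gave 5 of the 12393 genes with a symbol on the array and 10 probe sets: 2 for Ahr, 2 for Arnt, 2 for Arnt2, 1 for Ahrr and 3 for Tiparp. Of these, 7 probe sets of 4 genes averaged at least 3.98 in log2, the level below which 30% of probe sets lie, and entered the tests. A second probe set of Arnt and of Arnt2 and the only probe set of Ahrr lay below this value.

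ET is described by the labels as a murine line of cortical thymic epithelium from the fetus. Nearly confluent wells received TCDD (2,3,7,8-tetrachlorodibenzo-p-dioxin) at 5 nM or the solvent control, 1,4-dioxane at 0.05% by volume, for 2, 4 or 6 h in high-glucose DMEM with fetal calf serum. The labels give all 6 groups of treatment and time the same line and name no genotype or allele, and each group had 2 Affymetrix arrays. The series asked how AhR activation changes expression in these cells.

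The AhR protein waits in the cytoplasm with chaperones, enters the nucleus when a ligand such as TCDD binds, and pairs with Arnt, a partner that it shares with the hypoxia factors. The pair binds xenobiotic response elements with the core GCGTG and switches on target genes, of which Cyp1a1 is the best known. Among the targets are the brakes of the pathway: Ahrr encodes a repressor that competes for Arnt, and Tiparp (also called Parp7) encodes a mono-ADP-ribosyltransferase that modifies AhR and speeds its loss. Arnt2 is a close relative of Arnt known mainly from neural tissue. In the thymus, AhR activation by dioxins is known for thymic atrophy.

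Some features of the arrays touch every result. Clustering put 7 arrays (3 TCDD and 4 solvent) in a larger set and 5 (3 TCDD and 2 solvent) in a smaller set, which comprised, for 2 h and for 6 h, each treatment's second array, together with TCDD array 1 of the 4 h pair. The level of the metallothionein gene Mt1 (1422557_s_at) was 7.1 to 7.4 in the larger set and 9.6 to 10.8 in the smaller. What separated the sets is not given by the labels, and values within each set are given where they bear on a result. The treatment field of the second 4 h TCDD array named the solvent, and each 6 h solvent array was described as a 4 h one; titles set the groups. Cortical epithelial markers passed the filter for 7 of 15 genes on the array and medullary ones for 6 of 11, against 16 of 16 for fibroblasts and mesenchyme. The filter lies at the 30th percentile of level, and the list medians lay at percentiles 29.9, 37.5 and 98.2 in that order. The fibroblast and mesenchyme list ran from Lum at 4.31 to Acta2 at 12.6. The cortical list ran from Il7 at 2.87 to the chemokine gene Cxcl12 at 12.3, with Ctsl at 11.4, Ccl25 at 5.90, Krt8 at 5.04 and Foxn1 at 4.36 above the filter, and Prss16, Krt18, Epcam and Ly75 at 3.98, 3.96, 3.55 and 3.47 below it. Of 10 markers of thymocytes and other blood cells 4 reached it, namely Cd3e at 5.56, Cd4 at 5.53, Cd8a at 4.14 and Rag2 at 3.98, while Ptprc stood at 2.80 and Rag1 at 2.69. In such bulk RNA, fewer cells of a type and less RNA per cell cannot be told apart.

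The starts of the 2 feedback genes are shown because these genes are the known AhR targets among the members. The core GCGTG, in capitals on either strand, occurred 1 time in the Tiparp window, on the opposite strand with its first base 170 bases before the start. In the Ahrr window it occurred 3 times, on the strand of the gene, with first bases 107, 82 and 27 before the start. The windows run from 250 bases before to 50 after the start, 5′ to 3′ on the strand of the gene (RefSeq, GRCm38.p6).
Tiparp, chr3:65528197-65528496, plus strand: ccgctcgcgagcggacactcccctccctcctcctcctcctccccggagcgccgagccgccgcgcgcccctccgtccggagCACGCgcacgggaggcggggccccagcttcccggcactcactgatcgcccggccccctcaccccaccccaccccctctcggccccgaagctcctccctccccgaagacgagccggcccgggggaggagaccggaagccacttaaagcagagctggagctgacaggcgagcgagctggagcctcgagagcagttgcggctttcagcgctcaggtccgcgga
Ahrr, chr13:74292282-74292581, minus strand: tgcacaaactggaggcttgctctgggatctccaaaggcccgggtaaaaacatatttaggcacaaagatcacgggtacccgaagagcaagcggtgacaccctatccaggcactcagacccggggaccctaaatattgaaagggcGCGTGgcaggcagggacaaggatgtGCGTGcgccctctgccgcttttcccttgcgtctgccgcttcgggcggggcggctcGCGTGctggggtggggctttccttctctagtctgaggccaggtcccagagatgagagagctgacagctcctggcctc
Of 32851 such windows of all genes, 32.4% held the core on either strand and 3.91% held it 3 times or more. The longer form TNGCGTG, which contains the core, was held by the Ahrr window and not by the Tiparp window, and by 5.07% of all windows. The Arnt window held 1 core, the Arnt2 window none, and the window of Cyp1a1 1. A match is a description of the letters and shows no binding.

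Tiparp was the member that rose with TCDD, by all 3 of its probe sets. They were designed on the same sequence record and are not independent measurements, and the suffix of 1426721_s_at marks probes that may also match other transcripts.

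Probe set 1426721_s_at stood in solvent at 4.5 and 6.1 at 2 h, 4.9 and 4.8 at 4 h, and 5.0 and 5.5 at 6 h (log2 levels of the first and second array). With TCDD it stood at 8.9 and 9.2, 6.8 and 8.5, and 8.4 and 8.5. Every TCDD array lay above every solvent array, also across times.

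Probe set 1452160_at stood in solvent at 3.1 and 4.0, 3.5 and 3.2, and 3.5 and 3.6 at 2, 4 and 6 h. With TCDD its levels were 7.7 and 7.9, 5.1 and 7.4, and 7.1 and 7.2. The treatments again did not overlap, and 5 of 6 solvent arrays lay below the filter value (solvent mean 3.48), so the size of the change is uncertain.

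Probe set 1452161_at gave 3.7 and 4.5, 3.8 and 3.8, and 3.8 and 4.0 in solvent. With TCDD it gave 7.4 and 8.2, 4.7 and 7.0, and 7.5 and 6.6. The lowest TCDD array, the first at 4 h, was 0.20 above the highest solvent array. Here 4 of 6 solvent arrays lay below the filter value (solvent mean 3.93), and the size of the change is likewise uncertain. Non-overlap with all 6 TCDD arrays higher was found for 0.246% of the 15844 tested probe sets, for 0.186% of all 22626 without the filter, and for the 3 probe sets of Tiparp. With all 6 TCDD arrays lower it was found for 0.0442% of all and for 0 of the 7 member probe sets tested.

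**Figure D1:**
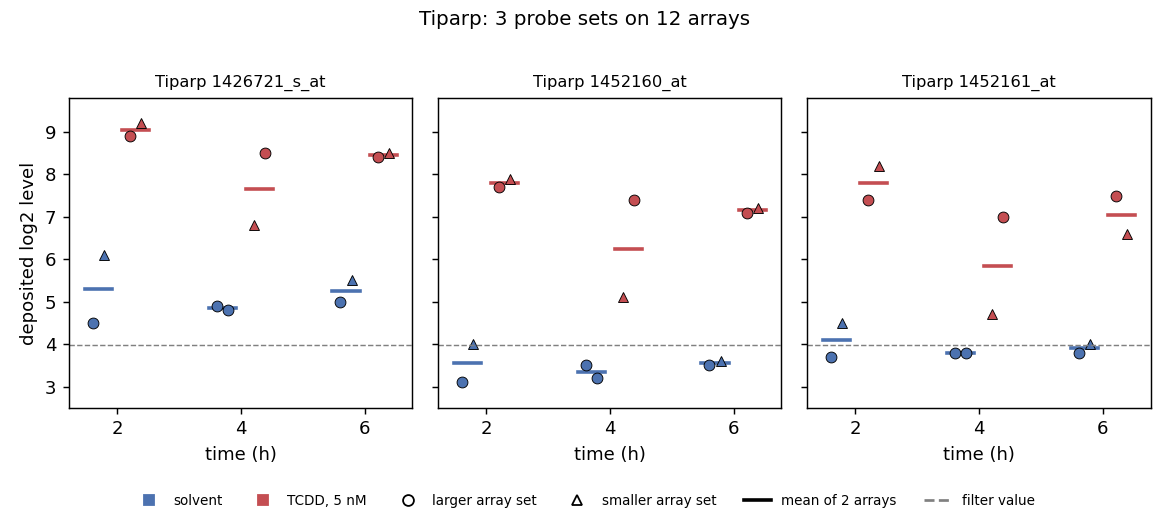
Deposited log2 levels (y axis) of the 3 Tiparp probe sets by time in h (x axis), 1 point per array, with solvent in blue and TCDD in red; circles are the larger and triangles the smaller array set, bars are means of 2 arrays, and the dashed line is the filter value of 3.98. All TCDD arrays lie above all solvent arrays of the same probe set, and the first TCDD array at 4 h is the lowest of the TCDD arrays.

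Averaged over the 3 times with equal weight, Tiparp was 9.51-fold higher by 1426721_s_at (log2 change 3.25 ± 0.32 SE, n = 6 against 6), with a limma adjusted p = 0.00313. By 1452160_at the log2 change was 3.58 ± 0.34 (adjusted p = 0.00227) and by 1452161_at 2.97 ± 0.36 (adjusted p = 0.0136). No fold is given for these 2, whose solvent levels lay mostly below the filter value. Of all tested probe sets 0.0947% passed in either direction and 0.0884% as higher. Both 1452160_at and 1452161_at reached the filter only through their TCDD arrays, so a count over the members that reached it supports nothing. In the fit without the filter the 3 probe sets had limma adjusted p = 0.00527, 0.00388 and 0.0208, and they were the 3 of all 10 member probe sets that passed, where 0.0751% of 22626 passed. An exact permutation test of treatment within each time, two-sided and unadjusted, gave p = 0.00926 for each of the 3, the smallest that its arrangements can give.
The call of 1452161_at was lost when 1 of these arrays was left out: the first solvent array at 2 h (adjusted p = 0.0794), the second 2 h TCDD array (0.0579), either 4 h solvent array (0.0798 and 0.0833), either 6 h solvent array (0.0672 and 0.0653) or the first 6 h TCDD array (0.0784). Without variance moderation none of the 3 passed (limma without moderation, adjusted p = 0.159, 0.147 and 0.359 in the order above).

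After 2 h with TCDD the Tiparp level was 9.05 ± 0.21 (SD, n = 2) by 1426721_s_at against 5.30 ± 1.13 in solvent. The fitted fold for this probe set was 13.5 at 2 h, 6.96 at 4 h and 9.19 at 6 h. For 1452160_at the log2 differences were 4.25, 2.90 and 3.60, and for 1452161_at 3.70, 2.05 and 3.15. At each single time 0 of the 7 member probe sets passed the limma test after adjustment, while 3, all of Tiparp, had an unadjusted p under 0.05. As 1452160_at and 1452161_at reached the filter only through their TCDD arrays, this count of 3 supports nothing. Of all tested probe sets 0.0189% passed at 2 h, 0.0126% at 4 h and 0.00631% at 6 h, and 1.49%, 2.17% and 2.15% had an unadjusted p under 0.05. Limma adjusted p for Tiparp ran from 0.0741 to 0.296 at 2 h, from 0.759 to 0.973 at 4 h and from 0.209 to 0.691 at 6 h. Even the lowest 95% confidence limit at each time was above 0, with log2 2.29 at 2 h, 0.64 at 4 h and 1.74 at 6 h, all from 1452161_at.

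The first TCDD array at 4 h held the lowest TCDD level in each Tiparp probe set. It lay 1.70, 2.30 and 2.30 below the second TCDD array of that time in log2, in the order of probe sets above. Cyp1a1 (1422217_a_at) was at 11.1 on the same array, its highest level on any array, and at 10.2 on the second. The array belongs to the smaller set, which held no solvent array at 4 h; what part the set has in this value was not tested. Without it the log2 change at 4 h was 3.65, 4.05 and 3.20, and 1452160_at passed at 4 h (limma adjusted p = 0.00475). That 4 h value rests on 1 TCDD array, which is assumed to vary like the arrays of the other groups.
In the same fit all 3 probe sets passed at 2 h (adjusted p = 0.0175, 0.000713 and 0.0105), and 1452160_at and 1452161_at at 6 h (adjusted p = 0.00218 and 0.027). Removing the second 4 h TCDD array instead, which left the low array alone in its group, gave log2 changes of 1.95, 1.75 and 0.90 at 4 h. At 2 h and at 6 h the fit is by construction the same whichever array of the 4 h TCDD pair is removed, so it is no second check. Against the solvent arrays of all times together all 3 probe sets passed at 2 h and at 6 h, with adjusted p = 0.0017 to 0.00624 at 2 h and 0.00544 to 0.0291 at 6 h. With solvent at 4 h and 6 h pooled as the control for those times, 1426721_s_at and 1452160_at passed at 6 h (limma adjusted p = 0.0289 and 0.019). In this fit the 2 h arrays kept their own solvent control. There 1452160_at passed (adjusted p = 0.0266) with its log2 change unchanged at 4.25, and only the fitted spread differed.

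Within the array sets the difference was present each time that it could be formed. Each such difference rests on 1 TCDD array and 1 solvent array, or 2 solvent arrays at 4 h in the larger set. In the larger set 1426721_s_at was higher with TCDD by 4.40, 3.65 and 3.40 at 2, 4 and 6 h in log2. In the smaller set, at 2 h and 6 h, it was higher by 3.10 and 3.00. For 1452160_at these differences were 4.60, 4.05 and 3.60, and 3.90 and 3.60. For 1452161_at they were 3.70, 3.20 and 3.70, and 3.70 and 2.60.

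The mean level of 1426721_s_at with TCDD was highest at 2 h (9.05), then 6 h (8.45) and then 4 h (7.65 ± 1.20 SD), and the order was the same for the other probe sets. The ranges of 4 h and 6 h overlapped in 1426721_s_at, in 1452160_at and in 1452161_at, while 2 h lay above 6 h without overlap in the first and second of these. The share of all tested probe sets with 2 h above 6 h was not counted. Between treatments at a single time, 2 arrays lay apart from 2 in a given direction for 6.68% to 11.1% of them. No change of the TCDD effect over time was detected: 0 of 7 member probe sets passed the limma F-test and 0 had an unadjusted p under 0.05, with 0% of all tested probe sets called and 0.663% at an unadjusted p under 0.05. Time with TCDD gave 0 of 7 after adjustment and 1 with an unadjusted p under 0.05 (1452161_at, limma adjusted p = 0.762), where 0% of all tested probe sets were called and 5.89% had such a p. Without the second 4 h TCDD array 1452160_at and 1452161_at passed this test (limma adjusted p = 0.00928 and 0.0134), among 1318 probe sets in all. The 4 h group is then the low array alone, with the spread taken from the other groups. Solvent means of 1426721_s_at were 5.30, 4.85 and 5.25 at 2, 4 and 6 h, and for time in solvent 0 of 7 member probe sets passed or had an unadjusted p under 0.05, where 0% of all were called and 1.87% had such a p.

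The 3 probe sets of Tiparp were compared through their difference on each array. The largest gap in average effect, 1452160_at minus 1452161_at, was 0.62 in log2 (exact permutation p = 0.0278, two-sided, and 0.167 after adjustment over the 6 pairs of probe sets of a member gene). The other 2 gaps were -0.33 (1426721_s_at minus 1452160_at, exact p = 0.0926) and 0.28 (1426721_s_at minus 1452161_at, exact p = 0.315). Without either 2 h solvent array the largest gap had an exact p = 0.0556. Without the first 2 h solvent array or the first 4 h TCDD array the gap between 1426721_s_at and 1452160_at was -0.45 and -0.43, with exact p = 0.0463 and 0.00926.

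The genes outside the members whose levels followed 1426721_s_at most closely over the 12 arrays were Tshz1 (Pearson r = 0.919), a zinc finger transcription factor, Cpox, a haem synthesis enzyme (0.918), and Nfe2l2, which encodes the antioxidant factor NRF2 (0.898). Cyp1a1 (0.895) and the neurotrophic factor gene Gdnf (0.888) followed. These correlations share the arrays and the treatment groups and are given as a description only.

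Ahr, the receptor itself, was represented by probe sets that differed in spread. Probe set 1422631_at stood in solvent at 7.6 and 7.2 at 2 h, 7.3 and 7.3 at 4 h, and 8.0 and 6.6 at 6 h. With TCDD it stood at 6.4 and 5.1, 4.8 and 7.6, and 7.8 and 6.6. At 2 h both TCDD arrays lay below both solvent arrays, as for 6.68% of all tested probe sets, while at 4 h and at 6 h the treatments overlapped.
Probe set 1450695_at, from the same sequence record, kept between 4.2 and 4.4 on all 12 arrays, close to the filter value.

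**Figure D2:**
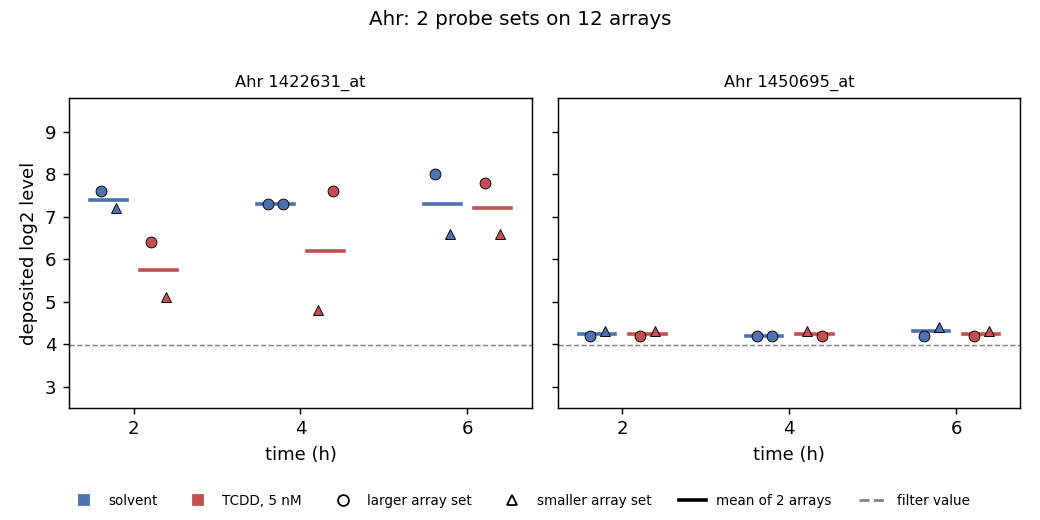
Deposited log2 levels (y axis) of the 2 Ahr probe sets by time in h (x axis), 1 point per array, with solvent in blue and TCDD in red; circles are the larger and triangles the smaller array set, bars are means of 2 arrays, and the dashed line is the filter value of 3.98. In 1422631_at the TCDD arrays run from 4.8 to 7.8 and the solvent arrays from 6.6 to 8.0; in 1450695_at all 12 arrays lie between 4.2 and 4.4.

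By 1422631_at the log2 difference of TCDD and solvent was -1.65 ± 0.83 SE at 2 h (n = 2 against 2; 95% confidence interval -3.50 to 0.20; limma adjusted p = 1). It was -1.10 at 4 h (-2.95 to 0.75, adjusted p = 0.973) and -0.10 at 6 h (-1.95 to 1.75, adjusted p = 1). The average of the times was -0.95 ± 0.48 (-2.02 to 0.12, adjusted p = 1; exact permutation p = 0.176, two-sided), with 4 of 6 TCDD arrays below the mean of the matching solvent pair. None of these differences passed, and the interval at 2 h spans folds of 0.0884 to 1.15. The replicate block fit treats TCDD and solvent arrays of the same number and time as pairs, although such a pairing was not shown. In this fit the interval was -3.03 to -0.27 at 2 h (limma adjusted p = 1) and -1.75 to -0.15 on the average (adjusted p = 0.708). These blocked intervals lay below 0, and neither value passed after adjustment.
By 1450695_at the differences were 0.00, 0.05 and -0.05 at 2, 4 and 6 h and 0.00 ± 0.09 on average (95% confidence interval -0.19 to 0.19). The average effects of the probe sets differed by -0.95 (exact permutation p = 0.176, two-sided, and 0.352 over the 6 pairs), so a difference between them was not shown.

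The value at 4 h rested on a single array, the first TCDD array at 4.8. Without it the 4 h difference of 1422631_at was 0.30, and without the second TCDD array -2.50; the average was then -0.48 and -1.42. With -1.42 the exact permutation p was 0.0463, and limma adjusted p for the average ran from 0.242 to 1 over 24 alternative settings. At 6 h the difference turned to 0.60 without the first solvent array and to 0.50 without the second TCDD array.
The low arrays with TCDD, 5.1 at 2 h and 4.8 at 4 h, both belonged to the smaller array set. Within the larger set the differences were -1.20, 0.30 and -0.20 at 2, 4 and 6 h. The smaller set gave -2.10 at 2 h and 0.00 at 6 h. As for Tiparp, each of these differences rests on 1 TCDD array. With the array set as a block the average was -0.71 ± 0.25 SE (95% confidence interval -1.27 to -0.16; limma adjusted p = 0.669), and at 2 h the difference was -1.65 (-2.60 to -0.70; adjusted p = 0.645). What part the array set has in the Ahr level was not tested. The residual SD of 1422631_at within groups, 1.04 in log2, was above that of 99.8% of all tested probe sets and of 99.7% of the 2917 with a mean level within 0.5 of its own.
The first TCDD array at 4 h thus had both the lowest Ahr level by 1422631_at and the lowest Tiparp level of the TCDD arrays. On the second TCDD array at 2 h, where Ahr was 5.1, Tiparp was at its highest in all 3 probe sets (9.2, 7.9 and 8.2).

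The mean levels of 1422631_at ran, from high to low, 7.4 (solvent 2 h), 7.3 (solvent 4 h), 7.3 ± 0.99 SD (solvent 6 h), 7.2 ± 0.85 (TCDD 6 h), 6.2 ± 1.98 (TCDD 4 h) and 5.75 ± 0.92 (TCDD 2 h). The first 4 of these groups overlapped with each other, and TCDD at 4 h overlapped with every group. TCDD at 2 h lay below all groups except TCDD at 4 h. The share of all tested probe sets with such a pattern was not counted, and the residual SD of this probe set was above that of 99.8% of them.
The genes that followed 1422631_at most closely over the 12 arrays were Trim59 (Pearson r = 0.944), the growth factor gene Ptn (0.941), Cd47, a cell surface protein that restrains phagocytosis (0.936), the ribosomal protein gene Rps3a1 (0.934, with a range of 0.3 in log2) and Irs1, an adaptor of the insulin receptor (0.932).

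Arnt and Arnt2, the partner genes, showed no difference that passed. Arnt by 1421721_a_at stood in solvent at 4.7 and 4.7, 4.3 and 4.7, and 4.6 and 4.7 at 2, 4 and 6 h, and with TCDD at 4.8 and 4.6, 4.7 and 4.5, and 4.4 and 4.5. The treatments overlapped at 2 h and 4 h, and at 6 h both TCDD arrays lay below both solvent arrays, as for 9.66% of all tested probe sets. On average the difference was -0.03 ± 0.10 SE in log2 (n = 6 against 6; 95% confidence interval -0.26 to 0.20; limma adjusted p = 1), which in folds is 0.833 to 1.15. It changed sign to 0.03 without the second 4 h solvent array.
The other Arnt probe set, 1425064_at, ran from 3.2 to 3.6 on the 12 arrays, below the filter value throughout, with 0.03 ± 0.09 in a fit without the filter.

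Arnt2 by 1420669_at stood in solvent at 4.4 and 4.5, 4.6 and 4.4, and 4.0 and 4.1, and with TCDD at 4.3 and 4.7, 4.6 and 4.3, and 4.3 and 4.4. The difference was 0.30 ± 0.19 SE at 6 h (95% confidence interval -0.12 to 0.72; limma adjusted p = 1), where both TCDD arrays lay above both solvent arrays, as for 9.69% of all tested probe sets. On average it was 0.10 ± 0.11 (-0.14 to 0.34, adjusted p = 1). Solvent at 6 h was the lowest group, and time in solvent did not pass (limma F-test, adjusted p = 0.996). The other probe set, 1420670_at, ran from 3.0 to 3.6, below the filter value on every array. Between the probe sets the average effect differed by -0.07 for Arnt and 0.05 for Arnt2 (exact permutation p = 0.611 and 0.806, two-sided; 0.733 and 0.806 over the 6 pairs).

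**Figure D3:**
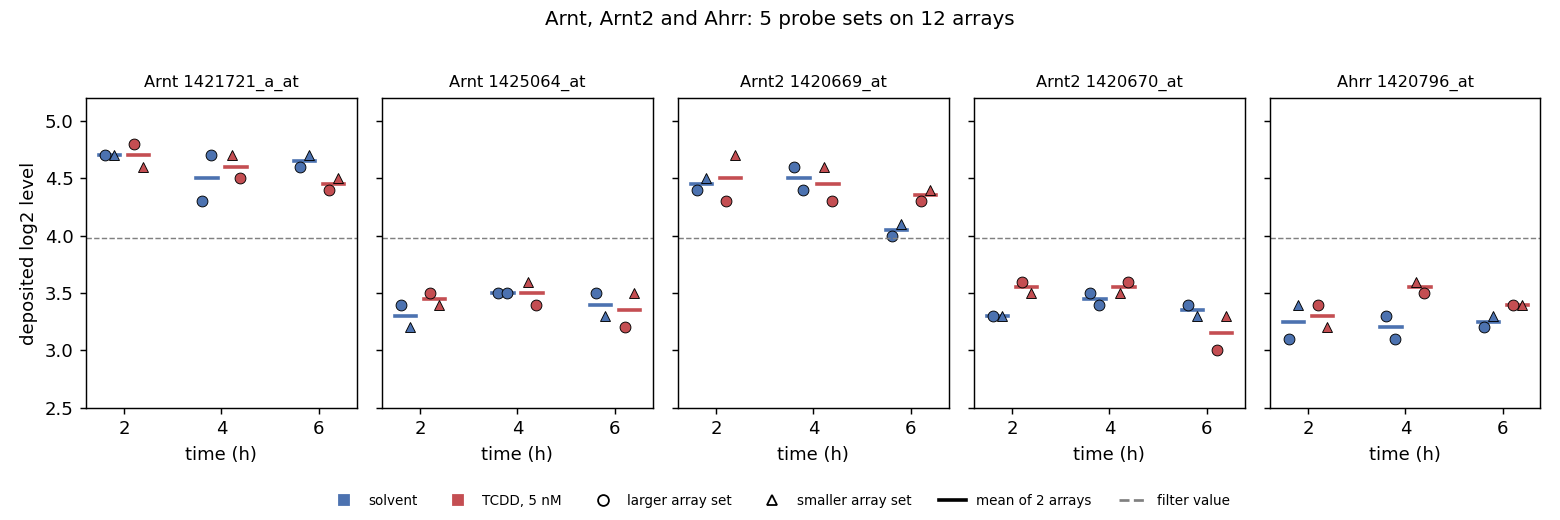
Deposited log2 levels (y axis) of the 2 Arnt, 2 Arnt2 and 1 Ahrr probe sets by time in h (x axis), 1 point per array, with solvent in blue and TCDD in red; circles are the larger and triangles the smaller array set, bars are means of 2 arrays, and the dashed line is the filter value of 3.98. All values lie between 3.0 and 4.8, and 1425064_at, 1420670_at and 1420796_at lie below the filter value on every array.

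Ahrr, the repressor that is a known AhR target, stayed near background on the array. By 1420796_at it stood in solvent at 3.1 and 3.4 at 2 h, 3.3 and 3.1 at 4 h, and 3.2 and 3.3 at 6 h. With TCDD the levels were 3.4 and 3.2, 3.6 and 3.5, and 3.4 and 3.4. The TCDD arrays lay above both solvent arrays at 4 h and at 6 h and overlapped with them at 2 h. Of the tested probe sets, which do not include Ahrr, 7.95% did so at 4 h and 9.69% at 6 h, and 5 of 6 TCDD arrays exceeded the mean of the matching solvent pair.
The average difference was 0.18 ± 0.09 SE in log2 in the fit without the filter (95% confidence interval -0.01 to 0.38; limma adjusted p = 0.997), with 0.35 at 4 h (0.01 to 0.69, unadjusted p = 0.0458, adjusted p = 0.969). The exact permutation p was 0.0741 (two-sided). It was 0.037 after quantile normalization of the deposited values, and 0.0185 and 0.0463 without the second solvent or the second TCDD array at 2 h. The mean level of 3.33 was above only 15.0% of probe sets, and differences are compressed so close to background, so a larger change of Ahrr is not excluded by these values.

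Set side by side on the average of the times, the log2 differences were 2.97 to 3.58 for the 3 probe sets of Tiparp and 0.18 for Ahrr. Those of Arnt and Arnt2 were -0.03 to 0.10, and those of Ahr were -0.95 and 0.00. Only the 95% confidence intervals of Tiparp lay apart from 0 at every time.

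**Figure D4:**
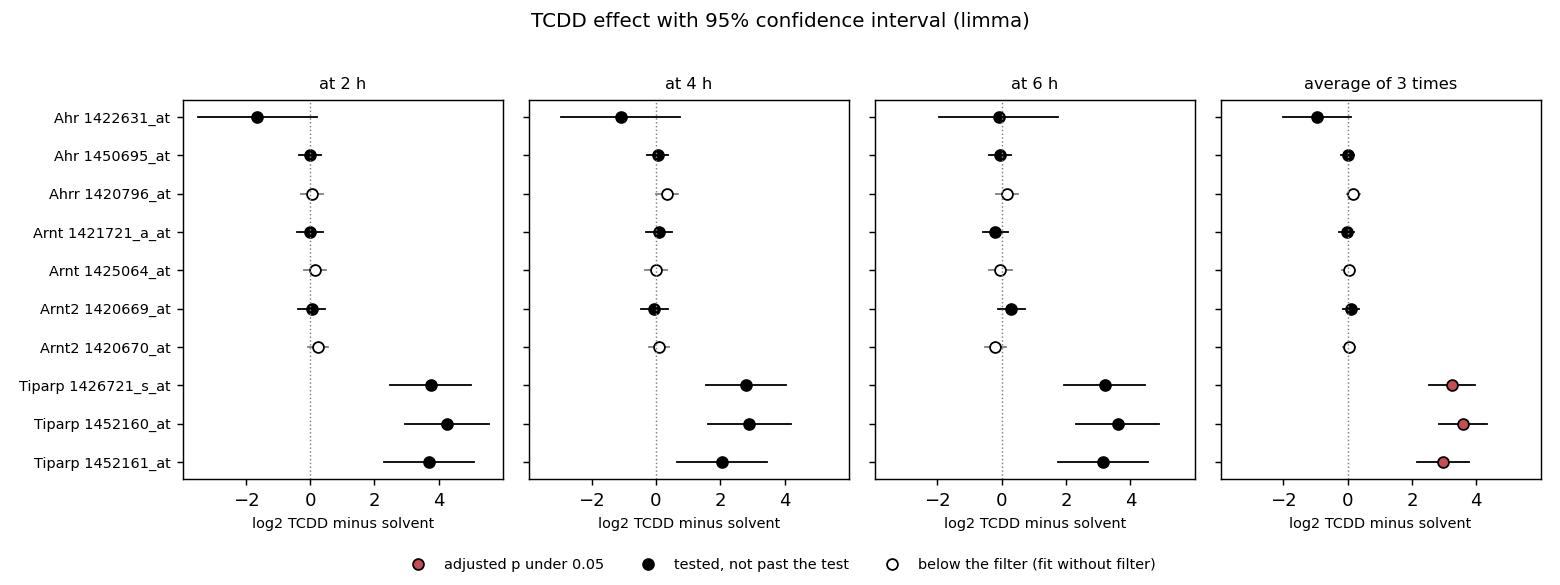
Log2 difference of TCDD and solvent (x axis) with its 95% confidence interval from limma for the 10 probe sets (y axis) at 2, 4 and 6 h and on the average; red points passed at an adjusted p under 0.05, black points were tested and did not pass, and open points are from the fit without the filter. The 3 Tiparp probe sets lie between 2.05 and 4.25 in every panel, and the interval of Ahr 1422631_at is the widest.

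The other genes around the receptor were read from lists, 1 probe set per gene. Of 24 other known AhR targets 13 were tested; on the average 3 rose (Cyp1a1, Aldh3a1 and Nqo1), none fell and 12 of 13 lay above 0, with a median log2 difference of 0.38. Over all tested probe sets 0.0947% were called, 44.0% lay above 0 and the median was 0.00. The list was chosen with earlier results of these data known, so its counts are a description only. Cyp1a1 was higher by 5.83 ± 0.26 SE (limma adjusted p = 1.4e-05) and the aldehyde dehydrogenase gene Aldh3a1 by 1.92 ± 0.18 (0.00227). Cyp1b1, another P450 of the family, stood at 1.40 ± 0.23 (0.0973) and did not pass by the probe set with the highest mean. Nqo1, a quinone reductase, was higher by 1.22 ± 0.11 (0.00227), and Nfe2l2 stood at 1.22 ± 0.21 (0.124).
Of the genes for chaperones, coregulators and ubiquitin ligases of the receptor, 0 of 16 tested passed with limma and 0 had an unadjusted p under 0.05 (median -0.03), where 3.36% of all tested probe sets had such a p on the average. The largest differences there were -0.28 ± 0.30 for the corepressor gene Nrip1, 0.25 ± 0.14 for the coactivator gene Ncoa1, 0.23 ± 0.27 for the chaperone gene Hsp90aa1 and -0.18 ± 0.13 for the coactivator gene Ncoa2.

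For the next 3 lists the shares of all tested probe sets on the average were 0.0947% called and 3.36% with an unadjusted limma p under 0.05. Among the other genes of the bHLH-PAS family, to which Ahr and Arnt belong, 0 of 10 passed with limma and 0 had an unadjusted p under 0.05 (median -0.04). The clock genes Per3 and Clock stood at -0.18 ± 0.18 and 0.17 ± 0.11, the hypoxia factor gene Epas1 at 0.13 ± 0.11, and the clock genes Per1 and Per2 at -0.13 ± 0.16 and -0.13 ± 0.14. Of the other mono-ADP-ribosyltransferases and the hydrolases that remove ADP-ribose, relatives and opponents of Tiparp, 0 of 9 passed with limma and 1 had an unadjusted p under 0.05 (median 0.02). The hydrolase gene Adprhl2 stood at -0.25 ± 0.10, Parp9 at 0.20 ± 0.26, Parp16 at -0.15 ± 0.18 and Parp6 at 0.12 ± 0.12.
Of the hypoxia targets, which need Arnt as the partner of Hif1a, 0 of 15 passed with limma and 2 had an unadjusted p under 0.05 (median -0.02). Ndrg1 stood at 0.83 ± 0.27 and the stress gene Ddit4 at 0.60 ± 0.18, while the mitophagy gene Bnip3 was at -0.30 ± 0.18 and the prolyl hydroxylase gene Egln3 at 0.22 ± 0.12.

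**Figure D5:**
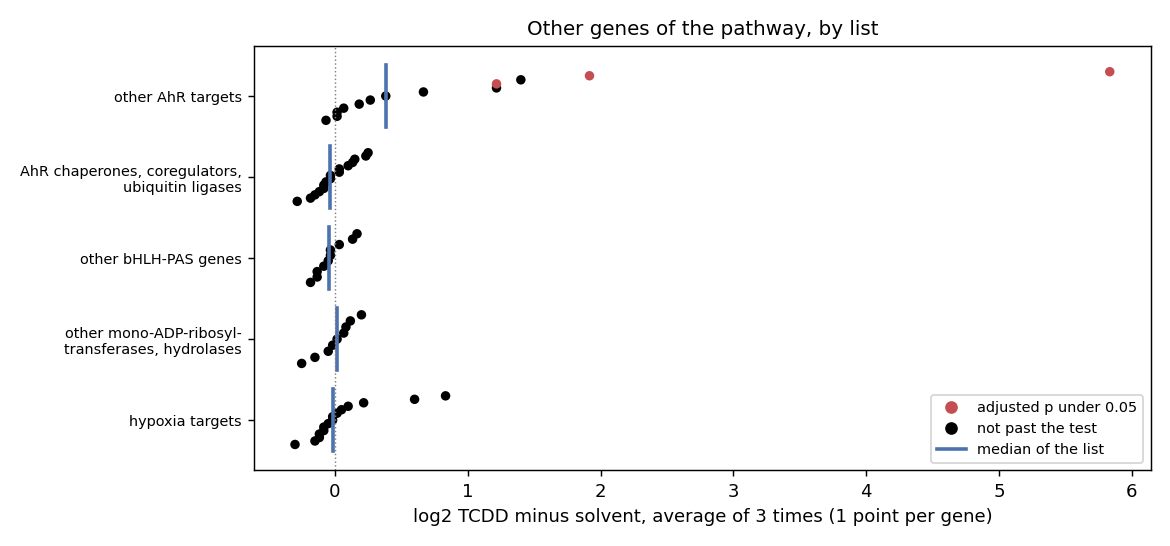
Log2 difference of TCDD and solvent averaged over the 3 times (x axis), 1 point per tested gene, for 5 lists of genes around the receptor (y axis); red points passed at an adjusted p under 0.05 and blue bars are list medians. The 3 red points are Nqo1, Aldh3a1 and Cyp1a1 of the AhR targets, and the medians of the other lists lie between -0.04 and 0.02.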

How the data were processed

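RNA was isolated with TRIzol and processed by the Affymetrix standard protocol, per the labels' protocols. The deposited table held log2 levels per probe set with 1 decimal, made by the authors with RMA per the submitters' processing notes; the software and further filters are not given in the sources used here. Because RMA gives arrays one distribution, a uniform shift cannot be detected. Medians were 5.1 on every array. The number of arrays limits the precision.

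Of 22690 probe sets 64 controls were set aside, and 15844 with a mean at or above the 30th percentile were tested. The platform annotation gave 20380 probe sets 1 symbol, 691 several and 1555 none; 20351 matched RefSeq (GRCm38.p6) by gene identifier, and 0 symbols changed. Promoter windows were found for 4 of the 5 genes. Limma 3.58.1 in R 4.3.3 fitted a mean for each of the 6 groups (6 residual degrees of freedom), two-sided, with Benjamini-Hochberg adjustment over all tested probe sets; folds are back-transformed log2 differences. Exact permutations shuffled treatment within times. Array sets came from complete linkage cut into 4 clusters, without the member probe sets. The larger set is the largest cluster, and the smaller set joins the arrays of all other clusters, also in the set block. Scripts were tested on simulated data. The design text calls arrays of a group biological duplicates without saying which step was repeated, so p-values reflect only how far these arrays differ, which may be technical.

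Differences between first and second arrays correlated between treatments at r = 0.365, 0.159 and 0.705 at 2, 4 and 6 h. Between treatments at different times r ran from -0.529 (TCDD 4 h with solvent 6 h) to 0.366 (TCDD 2 h with solvent 6 h). A pairing of the samples by replicate number within times was therefore not shown, and the blocked fit is an alternative. The members and lists were chosen with earlier results of these data known. All member probe sets are named, with up to 4 genes of each list by the size of the average difference (ties both named) and the 5 genes most correlated with each gene's highest tested probe set and with the second of Ahr. All 12 columns were used and 0 were left out.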

Additional observations from a re-analysis of the deposited data

Results flagged for a closer look

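The second Arnt2 probe set, 1420670_at, gave differences of opposite sign at different times: every TCDD array lay above the solvent mean by an average log2 difference of 0.25 at 2 h and 0.10 at 4 h, and every TCDD array lay below it at 6 h, with -0.20. This difference between times was not tested, since at 3.0 to 3.6 the probe set did not reach the filter value. The other Arnt2 probe set, 1420669_at, gave 0.05, -0.05 and 0.30 at the same times.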

How the results depend on the processing

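Of 862 values of member probe sets under alternative settings, 807 kept their side of the threshold without turning to the opposite sign. Of the rest 12 no longer passed, 26 newly passed and 17 changed sign. A value with a main estimate of 0 could not count as changed in sign. Such were Ahr 1450695_at at 2 h, which ran from -0.05 to 0.05, and Arnt 1421721_a_at at 2 h, from -0.1 to 0.1. The replicate block within each time left 3 member probe sets past the test on the average and 0 at each time, with Tiparp at 3.25 ± 0.26, 3.58 ± 0.31 and 2.97 ± 0.29 SE on the average (limma adjusted p = 0.0121, 0.0144 and 0.0256), and it changed no call of a member. The 2 arrays per group limit the precision, and levels near the filter value limit Ahrr, Arnt2, Arnt and the size of the Tiparp change. The cause of the shifts below was not tested. Leaving out arrays or moderation leaves fewer degrees of freedom, but the fitted spread moved too. Without either 4 h TCDD array the SE of Tiparp 1452160_at at 2 h was 0.26, against 0.58 with all arrays.

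Member probe sets past the test numbered 0 at 2 h, 4 h and 6 h and 3 on the average. The shares of all tested probe sets were 0.0189%, 0.0126%, 0.00631% and 0.0947% in that order. Tiparp 1452160_at and 1452161_at reached the filter only through their TCDD arrays. Counts of members past the test, here and with the replicate block, therefore support nothing and are a description only. Against solvent of all times the member probe sets past the test numbered 3 at 2 h and 3 at 6 h. With 4 h and 6 h solvent pooled for those times, and 2 h kept against its own solvent, they numbered 1 and 2. Without variance moderation they numbered 0 on the average. Leaving out 1 array gave 0 to 3 at 2 h, 0 to 1 at 4 h, 0 to 2 at 6 h, 2 to 3 on the average and 0 to 2 for time with TCDD.

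Of all probe sets 3 passed at 2 h, 2 at 4 h, 1 at 6 h, and 15 averaged over times. With the replicate block within each time 1 passed at 2 h and 1 at 4 h, and with the replicate block over all times 1 at 4 h. Blocking on the array set gave, in that order, 10, 7, 8 and 46, and 1 for time with TCDD. Against solvent of all times 12, 9, 15 and 26 passed. With 4 h and 6 h solvent pooled for those times, and 2 h kept against its own solvent, 6, 8 and 11 passed at the single times. With only the 4 arrays of a time 0 passed each. Without variance moderation 0, 0, 0 and 6 passed, and without the 4 h time 9 on the average. Leaving out 1 array gave 0 to 9, 1 to 59, 0 to 7 and 10 to 24, and 0 to 1318 for time with TCDD.

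Signs changed only in values that did not pass. With the set block Ahr 1450695_at at 4 h was -0.01. Against solvent of all times Arnt2 1420669_at at 4 h was 0.12 and Arnt 1421721_a_at -0.0167; against 4 h and 6 h solvent together Arnt2 was 0.18. Leaving out 1 array gave Ahr 1422631_at -2.50 to 0.30 at 4 h and -0.80 to 0.60 at 6 h, and Ahr 1450695_at -0.15 to 0.05 at 6 h. It gave Arnt 1421721_a_at -0.10 to 0.30 at 4 h and -0.10 to 0.0333 on the average, and Arnt2 1420669_at -0.15 to 0.25 at 2 h and -0.20 to 0.10 at 4 h. It gave Arnt 1425064_at -0.0167 to 0.0833 on the average, and the difference between the Arnt2 probe sets -0.0333 to 0.133.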

Other observations

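The second Ahr probe set, 1450695_at, moved over only 0.2 in log2, yet its closest genes over the 12 arrays included both metallothioneins: Tpm1 (Pearson r = 0.953), Timp3 (0.950), Mt2 (0.949), Glrx (0.949) and Mt1 (0.941). Mt2 (1428942_at) ran from 6.4 to 6.8 in the larger array set and from 8.9 to 10.7 in the smaller, and 1450695_at was at 4.2 on all 7 arrays of the larger set and at 4.3 or 4.4 on the 5 of the smaller. A difference of 1 to 2 steps of the last deposited digit underlies this pattern.

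For Arnt (1421721_a_at) the closest gene was Irf5 (Pearson r = 0.921), followed by Capn15 (0.809), Parvg (0.806), Rps18 (0.806) and Lmx1a (0.797). For Arnt2 (1420669_at) they were F2 (0.901), Amhr2 (0.898), Clstn3 (0.886), Pfkfb3 (0.868) and Napb (0.863). These correlations over 12 arrays were chosen as the highest of all tested genes, between levels that each span at most 1.1 in log2, and are given as values only.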
